A study of Mus musculus with 60 samples.

Results

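The genes described here encode the proteins of the mitochondrial ribosome, chosen as every gene whose symbol starts with Mrpl (large subunit) or Mrps (small subunit) followed by a digit. That rule was met by 81 of the 15642 genes in any table, and the 32 h time course held 80 of its 14620 genes, 50 named for the large subunit and 30 for the small one. 2 of the 80 were pseudogenes (Mrpl23-ps1 and Mrps36-ps2), and 79 were tested, since Mrps36-ps2 did not pass the filter on low values. All animals were male C57BL/6 mice of 8 weeks, and the whole liver was sampled as polyadenylated RNA from 3 separate mice in each of 20 groups. In the morning arm, mice underwent either partial hepatectomy (PHx), in which a surgeon takes out several lobes, or sham surgery between 8 and 9 o'clock, and livers were taken every 4 h between 4 and 32 h. In the night arm the same operations were done in the evening and livers were taken at 4 and 24 h. The morning PHx and sham mice are used at all 8 times, and the night PHx and sham mice at 4 and 24 h.

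The mitochondrial ribosome translates the few messages of mitochondrial DNA, which encode subunits of the respiratory chain and of ATP synthase. Its RNAs are made in the organelle, whereas all its proteins are encoded in the nucleus, made in the cytosol and imported. The liver regrows after PHx by division of its remaining hepatocytes, cells rich in mitochondria. In these bulk samples, fewer cells of a type and less RNA per cell cannot be told apart.

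The values of the time course were deposited as log2(value + 1) of a unit that was not stated, and back on a linear scale each library summed to between 936550 and 1196904. The count tables at 24 h held 24611621 to 30192818 counted reads per library. The libraries carried identifiers of several series, and at 4 h the PHx and the sham libraries belonged to different ones, so that at 4 h operation and library series cannot be told apart. The first sham library at 4 h had 3422 genes at 0, against 768 to 1414 in every other library of the time course. All 10 hepatocyte markers (Alb, Apoa1 and others) were detected at every time, with summed linear levels of 64883 to 72507 in PHx and 55388 to 64457 in sham livers at 4 h. A member is called higher or lower here where limma's Benjamini-Hochberg adjusted p, taken over all 12957 genes tested, was under 0.05. Changes are PHx minus sham on the log2 scale of the deposited values, and the TMM-scaled values are the same data after each library was rescaled to a common middle of all genes.

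Members were well expressed. In the sham livers at 4 h, whose table was deposited as TPM, a unit per transcript length, the median member had a mean of 27.0 TPM over 6 libraries, against 7.70 TPM for the median of 12568 genes. Mrpl18 was highest at 186 ± 27.2 TPM, followed by Mrpl42 at 166 ± 18.3 and Mrps21 at 141 ± 18.3 TPM (SD, n = 6), and these neighbours lay within their spread of each other. The lowest in the TPM table were the pseudogene Mrpl48-ps at 2.03 ± 0.575 TPM, Mrpl11, a protein of the base of the ribosomal stalk, at 5.58 ± 0.735 TPM, and Mrps16 at 7.89 ± 0.902 TPM. Of the 80 members in the time course, 26 share exon bases with another gene in GENCODE M21, so that some of their reads may belong to that gene. Beside those given with their partners, Mrpl10, Mrpl18, Mrpl21, Mrpl58, Mrps7 and Mrps30 are among them.

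Promoter windows are shown for 3 of the members called higher at the most times, followed by those of 3 members that were called lower at 8 h. Each runs from 250 bases before to 50 bases after the RefSeq transcription start on GRCm38.p6, and capitals mark matches, on either strand, to CCGGAAG (the ETS motif bound by GABPA), GCGCA, any base and GCGC in a row (the motif bound by NRF1) or AAGATGGC (the motif bound by YY1). The window of Mrpl17 lies at chr7:105811038-105811337 on the minus strand and holds an NRF1 and an ETS match, that of Mrps18b at chr17:35916391-35916690 on the minus strand holds an ETS match after the start, and that of Mrpl52 at chr14:54426659-54426958 on the plus strand holds 2 ETS matches. The window of Mrpl14 at chr17:45686099-45686398 on the plus strand holds an NRF1 match, that of Mrpl34 at chr8:71464676-71464975 on the plus strand an ETS match, and that of Mrpl49 at chr19:6057706-6058005 on the minus strand a YY1 match. No match overlapped another in these windows.
Mrpl17: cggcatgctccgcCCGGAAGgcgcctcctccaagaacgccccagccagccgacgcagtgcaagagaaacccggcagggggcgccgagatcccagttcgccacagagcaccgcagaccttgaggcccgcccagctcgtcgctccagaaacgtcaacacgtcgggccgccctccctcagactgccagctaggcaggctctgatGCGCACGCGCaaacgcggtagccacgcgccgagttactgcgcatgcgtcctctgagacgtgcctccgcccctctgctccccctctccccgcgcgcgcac
Mrps18b: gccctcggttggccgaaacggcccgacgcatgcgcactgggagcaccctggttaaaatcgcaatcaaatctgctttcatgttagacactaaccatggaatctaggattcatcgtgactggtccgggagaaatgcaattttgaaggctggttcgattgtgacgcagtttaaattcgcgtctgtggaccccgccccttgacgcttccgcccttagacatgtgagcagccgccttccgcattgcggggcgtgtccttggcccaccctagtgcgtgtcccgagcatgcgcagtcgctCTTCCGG
Mrpl52: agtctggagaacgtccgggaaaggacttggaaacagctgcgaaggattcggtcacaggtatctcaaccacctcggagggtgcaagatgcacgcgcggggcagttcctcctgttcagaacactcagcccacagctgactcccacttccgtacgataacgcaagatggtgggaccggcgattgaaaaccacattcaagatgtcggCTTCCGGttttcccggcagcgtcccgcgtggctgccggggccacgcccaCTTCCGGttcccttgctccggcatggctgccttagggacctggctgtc
Mrpl14: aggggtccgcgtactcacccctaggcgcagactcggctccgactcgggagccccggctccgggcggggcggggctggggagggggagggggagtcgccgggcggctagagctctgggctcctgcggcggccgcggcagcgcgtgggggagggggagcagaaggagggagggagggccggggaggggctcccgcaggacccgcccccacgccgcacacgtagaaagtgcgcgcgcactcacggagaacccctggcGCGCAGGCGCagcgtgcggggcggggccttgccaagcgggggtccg
Mrpl34: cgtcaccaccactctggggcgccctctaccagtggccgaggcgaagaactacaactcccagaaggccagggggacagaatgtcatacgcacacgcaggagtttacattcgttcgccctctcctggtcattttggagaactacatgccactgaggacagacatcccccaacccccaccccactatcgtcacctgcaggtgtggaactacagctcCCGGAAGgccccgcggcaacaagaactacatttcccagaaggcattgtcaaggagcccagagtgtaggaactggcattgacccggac
Mrpl49: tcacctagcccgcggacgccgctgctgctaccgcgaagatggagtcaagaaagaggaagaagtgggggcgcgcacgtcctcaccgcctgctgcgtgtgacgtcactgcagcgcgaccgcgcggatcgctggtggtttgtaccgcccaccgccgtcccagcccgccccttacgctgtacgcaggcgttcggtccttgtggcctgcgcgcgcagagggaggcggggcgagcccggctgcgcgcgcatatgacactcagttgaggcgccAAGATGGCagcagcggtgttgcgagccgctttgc

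Of the 80 members, 69 had such a window, and the letters of all of them were searched. The ETS motif was in 26 of the 69 windows (37.7%), against 19.8% of the 10404 time course genes with a window and 9.93% of all 27025 windows. The NRF1 motif was in 13 (18.8%), against 11% of time course genes and 5.19% of all windows, and the YY1 motif was in 12 (17.4%), against 5.11% and 3.19%. The E-box CACGTG, the motif bound by the clock proteins CLOCK and BMAL1, was in 5 (7.25%), against 11.6% of time course genes and 8.09% of all windows. A match describes letters only, and its absence says nothing about a factor.

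A small set of members was higher in PHx livers over much of the time course. Mrpl17, a relative of bacterial L17 near the exit tunnel of the large subunit, was called higher at 6 of the 8 times, 8 to 28 h. At 8 h it had 5.49, 5.59 and 5.93 in PHx livers, against 4.54, 4.98 and 4.30 in sham livers, a rise of 1.06 ± 0.22 (SE, limma adjusted p = 0.00035). At 12 h the PHx livers had 5.85, 5.72 and 5.86 and the sham livers 4.74, 4.67 and 4.58, the highest change of any member at that time (1.14 ± 0.22, adjusted p = 0.000304 by limma). All 3 PHx libraries stood above all 3 sham libraries at each time between 8 and 28 h. Its changes between 16 and 28 h were, in order of time, 0.72, 0.86, 0.84 and 0.93 (limma adjusted p = 0.022, 0.0049, 0.0082 and 0.0023). At 4 h the libraries overlapped, with 4.89, 5.10 and 5.23 in PHx and 5.12, 4.26 and 4.45 in sham livers, and the change of 0.46 had an adjusted p of 0.080 by limma, while the TMM-scaled change was 0.95 (adjusted p = 0.00068). At 32 h they overlapped again, with 5.87, 5.40 and 5.38 in PHx and 4.97, 5.27 and 5.50 in sham livers (0.30 ± 0.22, adjusted p = 0.39 by limma). The calls at 8, 12, 20 and 28 h held without any 1 library, whereas the call at 24 h was lost without PHx replicate 2 or sham replicate 1, and that at 16 h without PHx replicate 1 or 2 or sham replicate 1 or 3.

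Mrps18b, one of the relatives of bacterial S18, was called higher at 5 times. Its levels at 8 h were 5.25, 5.34 and 5.15 in PHx livers, against 4.46, 4.44 and 3.98 in sham livers (0.96 ± 0.16, limma adjusted p = 2.6e-05). At 12 h they were 5.09, 5.01 and 5.06 in PHx and 4.11, 4.33 and 3.83 in sham livers (0.96 ± 0.16, limma adjusted p = 5.6e-05). The groups were apart at both times, and smaller rises were called at 4 h (0.59), 16 h (0.66) and 24 h (0.49), the last of which had an adjusted p of 0.23 with TMM-scaled values. Mrps18b shares exon bases with Gm16279 on the opposite strand, and since the use of strand in counting was not stated, their reads cannot be told apart.

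Mrpl52, a protein of the large subunit without a bacterial counterpart, was also called higher at 5 times. At 12 h it had 9.29, 9.46 and 9.59 in PHx livers, against 8.81, 8.57 and 8.86 in sham livers (0.70 ± 0.18, limma adjusted p = 0.0049). At 28 h it had 9.25, 9.51 and 9.54 in PHx and 8.80, 8.56 and 8.66 in sham livers (0.76 ± 0.18, limma adjusted p = 0.0018). The groups did not overlap at either time. It was also called at 4 h, and the rises of 0.56 at 20 h and 0.63 at 24 h were not called with TMM-scaled values (adjusted p = 0.16 and 0.11). Mrpl16, a relative of bacterial L16, was called at 5 times as well, with smaller changes of 0.29, 0.47, 0.38, 0.44 and 0.47 in the order 4, 12, 24, 28 and 32 h, the first pair of which were called under both scalings.

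**Figure D1:**
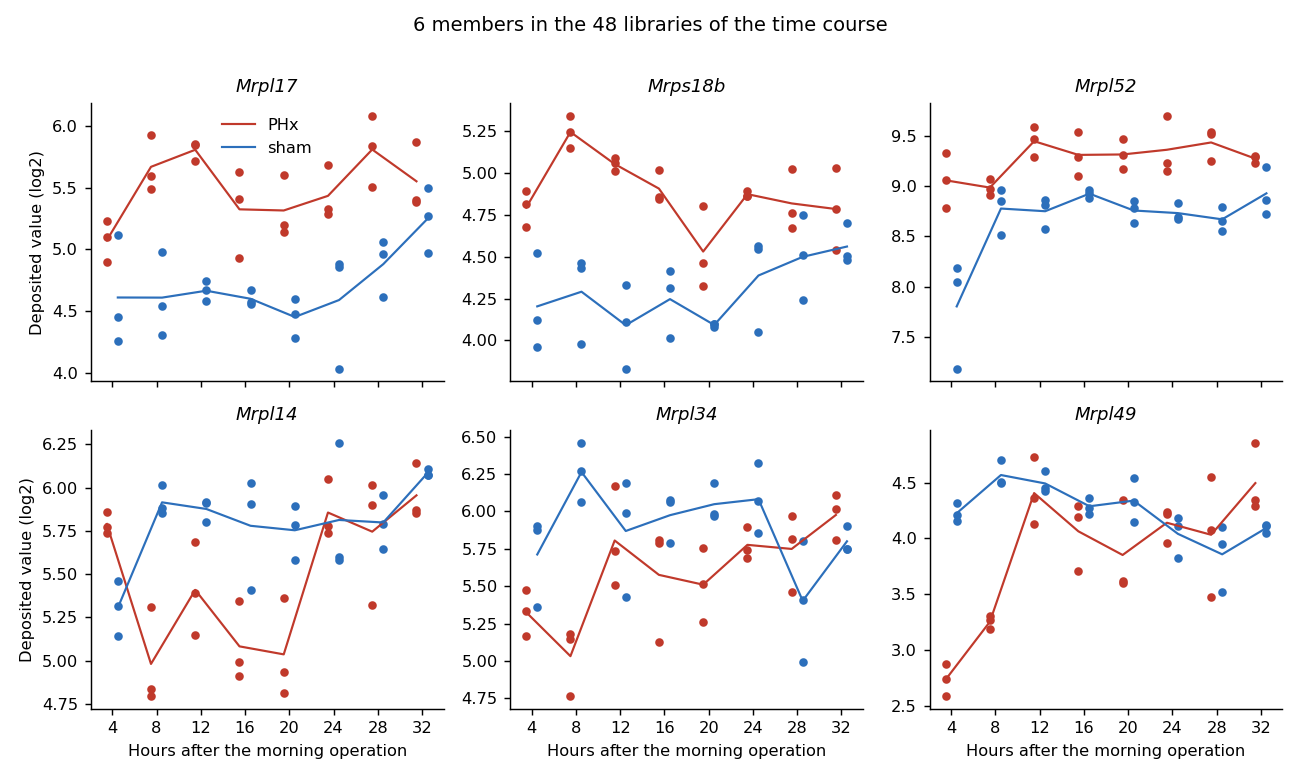
Deposited log2 value (vertical axes, which start above 0) of Mrpl17, Mrps18b, Mrpl52, Mrpl14, Mrpl34 and Mrpl49 in each of the 48 libraries against hours after the morning operation. Points are libraries, lines join group means, and PHx (red, left) and sham (blue, right) points are set slightly apart; Mrpl17 in PHx livers lies above sham at every time between 8 and 28 h, and Mrpl14, Mrpl34 and Mrpl49 in PHx livers lie below sham at 8 h.

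In the deposited values of the time course, 45 of the 79 members were called at 1 or more times and 35 of the 80 at none. The same share over all genes is not given here, so these counts cannot be set against it. At 4 h alone, 9.32% of all genes tested were called higher and 37.6% lower. Of the 45, 19 were called in the higher direction only, 19 in the lower direction only and 7 in both, and 8 were called at 4 or more times. In the deposited values the members did not move as a block. After TMM scaling most of their changes at 4 h were above 0, as given below. Mrpl10 and Mrpl44 of the large subunit, Mrpl58, a peptidyl-tRNA hydrolase built into it, and Mrps7, Mrps12 and Mrps34 of the small subunit were called at no time in the deposited values, with changes between -0.32 and 0.37 at the 8 times for these 6 genes. After TMM scaling Mrpl10, Mrpl58 and Mrps34 were each called higher at 1 time.

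**Figure D2:**
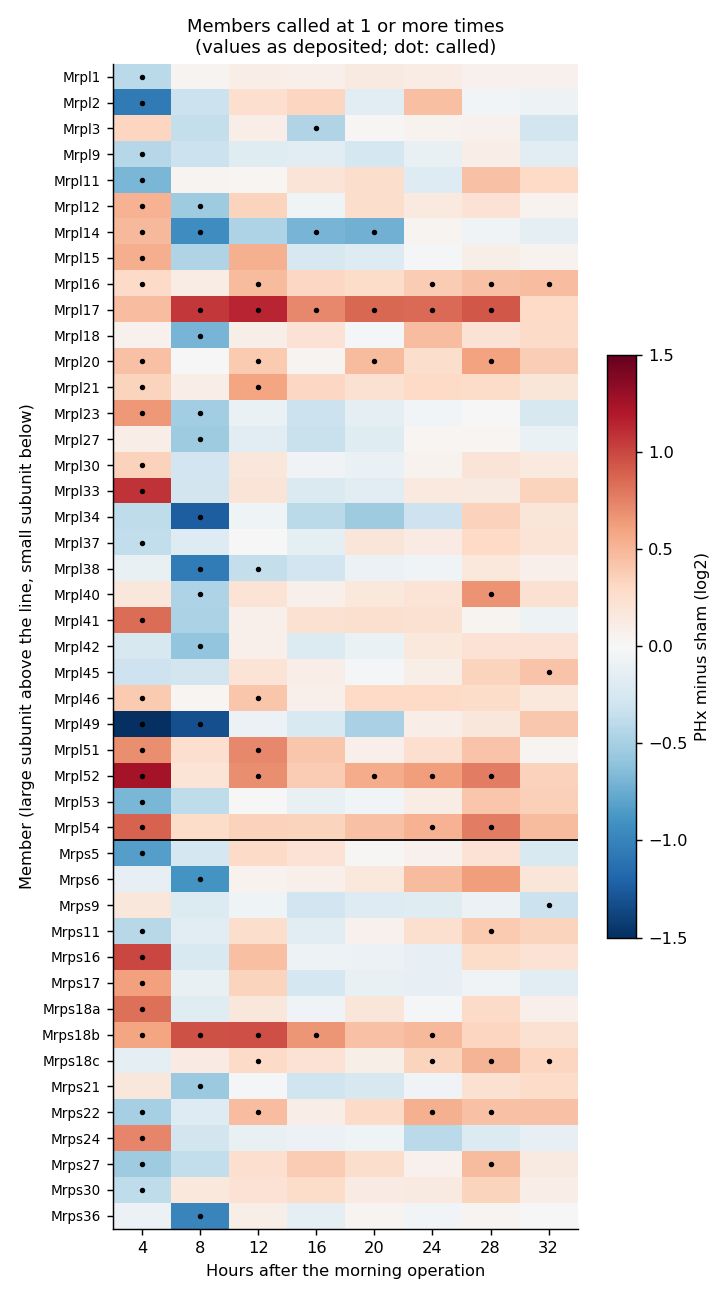
Change in PHx against sham livers (colour, log2 of the deposited values) of the 45 members called at 1 or more times, by hours after the morning operation. Members named for the large subunit are above the line and those named for the small one below it. Dots mark calls (limma adjusted p under 0.05); Mrpl17 carries 6 dots, and most columns after 12 h hold few.

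At 4 h, 19 of 79 members (24.1%) were called higher and 12 (15.2%) lower in PHx livers, while 9.32% of all genes tested were called higher and 37.6% lower. The median change of members was 0.01, against -0.32 for all genes. After TMM scaling, which moved the median of all genes to 0.02, 47 members were called higher and 1 lower, against 21.6% and 18.8% of genes, with a median change of 0.49 and 72 of 79 changes above 0. The 19 rises were called under both scalings, whereas of the 12 falls only that of Mrpl49 was. Fitting the 6 libraries of 4 h alone gave 12 higher and 3 lower, against 5.78% and 26.1% of genes.

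The largest rises at 4 h were in Mrpl52, Mrpl33, Mrps16 and Mrpl54. Mrpl52 had 9.06, 8.78 and 9.33 in PHx livers, against 7.18, 8.05 and 8.18 in sham livers (1.25 ± 0.18, limma adjusted p = 4.2e-07). The sham livers at 4 h were the low ones, since the sham libraries of 8 to 32 h ranged between 8.52 and 9.19. Mrpl33, a small protein near the exit site for tRNA, had 7.79, 7.54 and 7.95 in PHx and 6.95, 6.65 and 6.43 in sham livers (1.09 ± 0.15, limma adjusted p = 2.6e-07), with no overlap. It shares exon bases with Gm43809 on the same strand, so its reads may belong to either. A separate signal was deposited for the same PHx livers at 4 h, in reads times a fixed factor per gene. There, after TMM scaling, Mrpl33 had 1.2, 1.0 and 1.8 and Mrpl52 85, 71 and 106, a far wider gap than in the time course. The reason was not tested. Mrps16, a protein of the body of the small subunit, rose by 1.00, and Mrpl54 by 0.89 (limma adjusted p = 0.00044 and 7.7e-05). Set against the sham livers of 24 h, whose libraries shared the series of the PHx 4 h ones but not the clock time (a choice made after seeing the data), Mrps16 had a change of -0.17 and Mrpl54 of 0.11 (limma adjusted p = 0.58 and 0.65). The changes of Mrpl52 and Mrpl33 against those livers were 0.33 and 0.13 (limma adjusted p = 0.15 and 0.53). Mrps18a, an S18 relative that sits in the large subunit in mammals despite its symbol, rose by 0.82, and the stalk protein Mrpl12, whose exons overlap Gm16755, by 0.52 (limma adjusted p = 0.00014 and 0.0014). Against the sham livers of 24 h these were 0.12 and -0.25 (limma adjusted p = 0.61 and 0.13), so the direction of Mrpl12 turned.

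Mrpl49, which has no bacterial counterpart, was the member with the largest fall at 4 h. It had 2.59, 2.74 and 2.87 in PHx livers, against 4.16, 4.21 and 4.31 in sham livers (-1.49 ± 0.20, limma adjusted p = 2.6e-07), groups far apart, and the TMM-scaled change was -1.05. Its exons overlap those of Syvn1 on the opposite strand. Mrpl2, next to the peptidyl transferase centre, had 5.84, 6.14 and 7.04 in PHx and 7.20, 7.55 and 7.45 in sham livers (-1.06 ± 0.25, limma adjusted p = 0.00072), and Mrps5 of the decoding region fell by 0.83 ± 0.15 (limma adjusted p = 2.2e-05). Neither was called with TMM-scaled values (adjusted p = 0.084 and 0.086). Against the sham livers of 24 h the change of Mrpl2 turned to 0.60 as deposited and to 1.00 after TMM scaling (limma adjusted p = 0.059 and 0.0037), while Mrps5 had -0.53 and -0.12 (0.0049 and 0.60). The falls of Mrpl53 (0.69), whose exons overlap Gm42688, Mrpl11 (0.69), Mrps22 (0.50) and Mrps30 (0.38) were likewise called only in the values as deposited, and that of Mrps30 changed sign after TMM scaling (0.084). The other 3 turned as well under TMM scaling with the sham livers of 28 h, where Mrpl11 had 0.75, Mrpl53 0.25 and Mrps22 0.38 (limma adjusted p = 0.028, 0.32 and 0.027), and Mrpl11 had 0.36 against those livers in the deposited values too (0.32).

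Several features moved with operation at 4 h. Without the first sham library at 4 h, 19 members were called higher and 6 lower, against 7.18% and 35.7% of genes, and 52 higher and 1 lower after TMM scaling, against 18.1% and 17.5% of genes. Because the sham 4 h libraries stood in a series of their own, the sham livers of 2 other times were put in their place, a choice made after seeing the data. Against the sham livers of 28 h, which shared the clock time but not the library series, 15 members were higher and 13 lower, against 10.3% and 36% of genes, or 47 and 4 after TMM scaling, against 21.4% and 21%. Against those of 24 h, which shared the PHx libraries' series but not their clock time, 1 member was higher and 14 lower, against 5.41% and 30.7% of genes, or 23 and 2 after TMM scaling, against 14.4% and 14.1%. The number of members called higher in the deposited values thus lay between 1 and 19, depending on the sham livers used.

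At 4 h the changes also differed with transcript length. The median change of all genes was 0.17 for transcripts under 1000 bases, -0.15 between 1000 and 2000 bases, -0.42 between 2000 and 4000 and -0.63 at 4000 and over. Members are short, with a median transcript length of 1221 bases against 2390 for all genes tested. In the same 4 classes, members had medians of 0.17 (31 genes), -0.01 (28), 0.01 (14) and -0.16 (6), equal to all genes in the shortest class and above them in the others. After TMM scaling the members' medians were 0.67, 0.48, 0.49 and 0.29, against 0.49, 0.22, -0.06 and -0.29 for all genes. Neutrophil markers were higher in PHx livers at 4 h, with summed linear levels of 31.9 to 61.2 against 0 to 7.86 in sham livers and 4 of 4 tested markers called higher. Of the 7 neutrophil markers listed, 5 were among the time course genes. Endothelial markers summed to 77.7 to 94.2 in PHx and 133 to 139 in sham livers, with 4 of 8 called lower. Markers of the acinar cells of the pancreas summed to 24.5 to 7068 in PHx and 28.8 to 39.7 in sham livers at 4 h. They reached 2161 in PHx livers at 16 h as well, against at most 48.9 in sham livers of 16 h. In the sham livers of 24 h they reached 244. The part of library series, length and cell makeup in the members' changes was not tested.

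**Figure D3:**
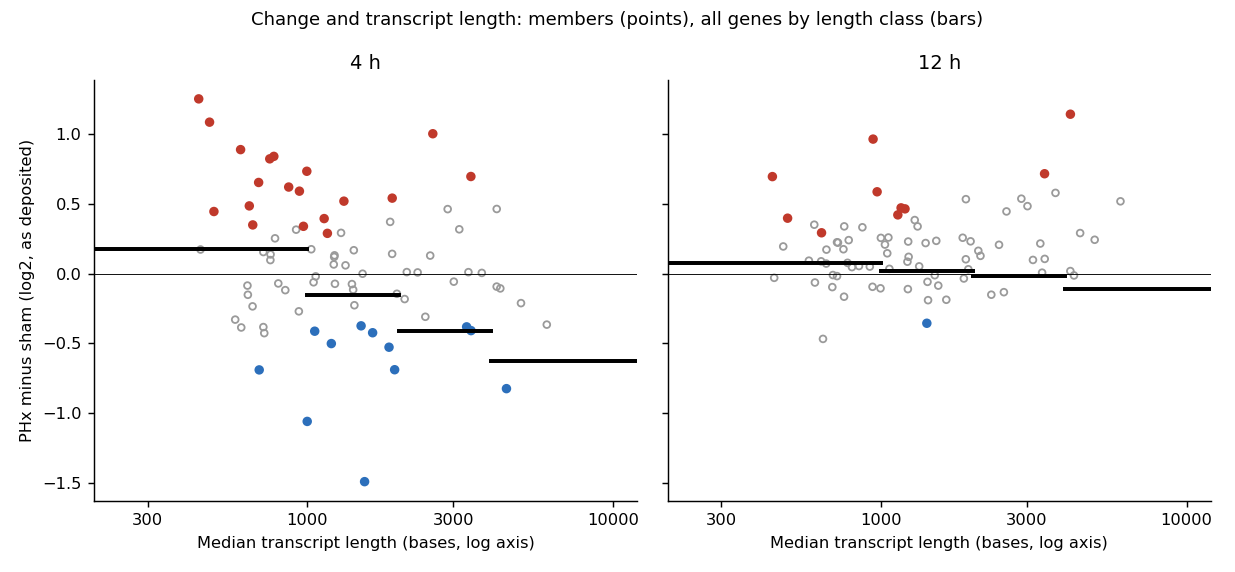
Change in PHx against sham livers (vertical axis, log2 of the deposited values) of each member against the median length of its gene's transcripts (bases, log axis) at 4 h (left) and 12 h (right). Red and blue points are members called higher and lower, open points the others, and black bars the median change of all genes tested in each length class, which falls between 0.17 and -0.63 at 4 h and between 0.07 and -0.11 at 12 h.

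At 8 h more members were lower than higher in PHx livers. 13 of 79 (16.5%) were called lower and 2 (2.53%) higher, close to the 18.7% and 6.04% of all genes. The median change was -0.20, against -0.15 for all genes, and after TMM scaling 6 were lower and 7 higher, against 11.7% and 10.6% of genes, with a median of 0.01. The 6 falls called under both scalings were those of Mrpl14, Mrpl34, Mrpl38, Mrpl49, Mrps6 and Mrps36, and both rises, of Mrpl17 and Mrps18b, were among those called under both. The libraries of 8 h alone gave 3 higher and 21 lower, against 8.95% and 26.1% of genes.

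Mrpl38, of the central protuberance of the large subunit, had 5.07, 4.92 and 5.14 in PHx livers at 8 h, against 6.18, 6.12 and 5.99 in sham livers. This fall of 1.05 ± 0.11 had the smallest adjusted p among members at 8 h (limma, 4.3e-09), and the groups were far apart. Mrpl49 remained low at 8 h with 3.27, 3.18 and 3.30 in PHx, against 4.70, 4.50 and 4.50 in sham livers (-1.32 ± 0.20, limma adjusted p = 6.0e-06). Mrpl34 had 4.77, 5.15 and 5.18 in PHx and 6.46, 6.27 and 6.06 in sham livers (-1.23 ± 0.21, limma adjusted p = 2.1e-05). Each of these groups was separate.

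Mrps36, a member by its symbol whose protein is a subunit of the oxoglutarate dehydrogenase complex, had 3.50, 4.01 and 3.56 in PHx, against 4.81, 4.52 and 4.72 in sham livers (-0.99 ± 0.19, limma adjusted p = 0.00018). Mrpl14, at the interface between the subunits, had 4.84, 5.31 and 4.79 in PHx and 5.88, 5.85 and 6.01 in sham livers at 8 h (-0.94 ± 0.18, limma adjusted p = 0.0002). It was the member called lower at the most times: it was also lower at 16 h (-0.70) and 20 h (-0.72), under both scalings, but higher at 4 h. Mrpl12, higher at 4 h, had 5.74, 5.91 and 5.89 in PHx and 6.46, 6.42 and 6.24 in sham livers at 8 h (-0.53 ± 0.13, limma adjusted p = 0.0024), and was not called after TMM scaling (-0.32, adjusted p = 0.11). Mrps6, a protein of the platform of the small subunit whose exons overlap those of Slc5a3, fell by 0.90 ± 0.27 (limma adjusted p = 0.012).

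At 12 h more members were called higher than lower in PHx livers. 10 of 79 (12.7%) were called higher and 1 (1.27%) lower, against 7.57% and 8.63% of all genes, and 59 of 79 changes were above 0. The median member was up by 0.16, against -0.01 for all genes, and TMM scaling changed little, with 11 higher and 1 lower, against 8.32% and 8.33% of genes, and a median of 0.19. The PHx and sham libraries of 12 h carried identifiers of one series. Neutrophil markers still summed to 9.85 to 14.6 in PHx livers, against 0.33 to 3.62 in sham livers, and their part in the result was not tested.

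Beside Mrpl17, Mrps18b and Mrpl52, the rises at 12 h were those of Mrpl16, Mrpl20, Mrpl21, Mrpl46, Mrpl51, Mrps18c and Mrps22, all called under both scalings. Mrpl51, a protein without a bacterial counterpart whose exons overlap Mir3098, had 4.54, 4.63 and 4.66 in PHx and 3.67, 4.02 and 4.00 in sham livers (0.72 ± 0.18, limma adjusted p = 0.0047). Mrps22, needed in humans for assembly of the small subunit, had 5.73, 5.64 and 5.38 in PHx and 5.03, 5.26 and 5.07 in sham livers (0.46 ± 0.16, limma adjusted p = 0.037). Neither pair of groups overlapped. Mrps18c, the third S18 relative, whose exons overlap Gm43511 on the same strand, rose by 0.29 (limma adjusted p = 0.031). The fall was in Mrpl38, with 5.75, 5.71 and 5.86 in PHx and 6.10, 6.22 and 6.08 in sham livers (-0.36 ± 0.11, limma adjusted p = 0.021). By length class, members had medians of 0.09, 0.13, 0.19 and 0.27 at 12 h, against 0.07, 0.02, -0.02 and -0.11 for all genes. Without PHx replicate 1, sham replicate 1 or sham replicate 3, 6 members were called higher, and the fall was not called without PHx replicate 1 or 2 or sham replicate 2 (2 were lower without PHx replicate 3).

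At 16 h 2 members were called higher and 2 lower (2.53% each), against 7.31% and 6.35% of all genes, and the median change was 0.05 for members and for all genes. Mrpl17 and Mrps18b were higher, and Mrpl14 and Mrpl3 (-0.46, limma adjusted p = 0.047) were lower. After TMM scaling 2 were higher and 5 lower, against 6.32% and 7.94% of genes, and the libraries of 16 h alone gave 1 and 0, against 4.83% and 4.42%. 1 was higher without sham replicate 3, and 1 lower without PHx replicate 1 or sham replicate 3 and 0 without sham replicate 1. At 20 h 3 were higher (3.80%) and 1 lower (1.27%), against 12.5% and 5.87% of genes. These were Mrpl17, Mrpl52 and Mrpl20 (0.47, limma adjusted p = 0.0090) on the one side and Mrpl14 on the other. The median member changed by 0.06 at 20 h, against 0.13 for all genes, and by -0.09 after TMM scaling, where 1 was higher and 4 lower, against 6.94% and 8.81% of genes. Without PHx replicate 2 at 20 h, 3 were lower.

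At 24 h 7 members (8.86%) were called higher and 0 lower, against 9.19% and 3.11% of all genes, with a median change of 0.12 for members and 0.10 for all genes. They were Mrpl16, Mrpl17, Mrpl52, Mrpl54, Mrps18b, Mrps18c (0.34) and Mrps22 (0.53, limma adjusted p = 0.020). After TMM scaling 1, Mrpl17, was higher and 2 were lower, against 5.42% and 5.53% of genes, and the libraries of 24 h alone gave 1 higher, Mrpl52, and 0 lower, against 6.92% and 2.97%. At an unadjusted p under 0.05, limma gave 1 lower member at 24 h in the values as deposited. The number higher was 1 without PHx replicate 1, 4 without sham replicate 1 and 2 without sham replicate 2, and 1 was called lower without PHx replicate 3.

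At 28 h 10 members (12.7%) were called higher and 0 lower, 6 of them named for the large and 4 for the small subunit, against 14.9% and 5.59% of all genes. Of the members' changes, 68 of 79 were above 0, with a median of 0.22, and at an unadjusted p under 0.05 limma gave 0 lower. The median of all genes was above 0 as well, at 0.13, and their share of changes above 0 is not given here. Mrps18c had 8.18, 7.82 and 7.87 in PHx livers, against 7.39, 7.53 and 7.42 in sham livers (0.51 ± 0.10, limma adjusted p = 0.00021). Mrpl40, of the central protuberance, had 5.98, 5.63 and 5.71 in PHx and 5.18, 4.93 and 5.19 in sham livers (0.67 ± 0.14, limma adjusted p = 0.00073), and Mrpl54 rose by 0.76. These groups did not overlap. After TMM scaling 6 were higher and 0 lower, against 7.63% and 8.87% of genes, with a median of 0.04. The libraries of 28 h alone gave 4 higher and 0 lower, against 5.12% and 1.93% of genes. Without PHx replicate 2, 17 were higher in the values as deposited.

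At 32 h 3 members (3.80%) were higher and 1 (1.27%) lower, against 11.8% and 3.6% of all genes. Mrpl16 rose by 0.47 (limma adjusted p = 0.0040), Mrpl45, which faces the membrane beside the exit tunnel, by 0.43 (0.029) and Mrps18c by 0.32 (0.021), and after TMM scaling 0 members were higher and 2 lower, against 5.75% and 6.4% of genes. Mrps9, a relative of bacterial S9 in the head of the small subunit, had 5.07, 5.04 and 5.18 in PHx livers, against 5.36, 5.44 and 5.44 in sham livers. This fall of 0.32 ± 0.11 (limma adjusted p = 0.043) was larger after TMM scaling (0.50, adjusted p = 0.0014), but was lost in the deposited values without any 1 of the 6 libraries. The number higher was 0 without PHx replicate 1, 5 without PHx replicate 2 and 1 without sham replicate 1.

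**Figure D4:**
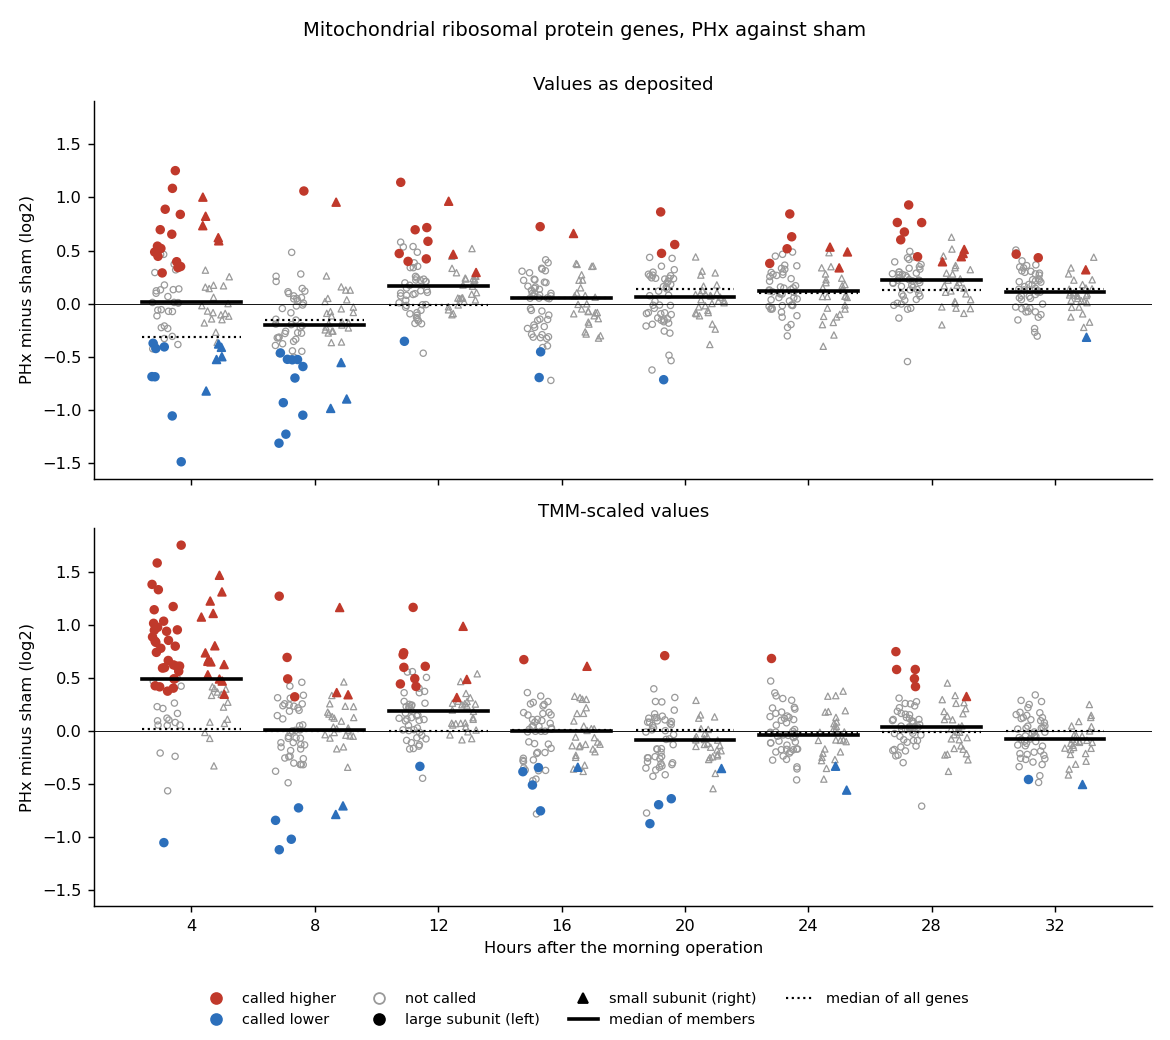
Change of each tested member in PHx against sham livers (vertical axis, log2) by hours after the morning operation, for the values as deposited (top) and after TMM scaling (bottom). Circles (left) are large and triangles (right) small subunit members by symbol, red called higher, blue called lower and open not called. Solid bars are medians of members and dotted bars medians of all genes. The members' median stands at 0.01 at 4 h as deposited and at 0.49 after TMM scaling.

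Members are assigned here to the subunit that their symbol names, which is not always the one they sit in. Mrps18a, for example, sits in the large subunit and is counted with the small one. Mrps36, whose protein is a subunit of the oxoglutarate dehydrogenase complex, is counted there as well. No member was moved to another subunit. The median change of large subunit members less that of small subunit members was 0.15 for the 4 h livers and lay between -0.07 and 0.06 from 8 to 32 h. Within single libraries, the median level of large less small subunit members ranged between -0.31 and 0.19 in the 24 PHx libraries and between -0.22 and 0.33 in the 24 sham libraries. The difference between the subunits was not tested. At 4 h, 14 of 50 large subunit members were higher and 7 lower, and 5 of 29 small subunit members were higher and 5 lower, against 9.32% and 37.6% of genes. At 8 h, 1 of 50 was higher and 10 lower in the large subunit, and 1 of 29 was higher and 3 lower in the small one. At 12 h, 7 were higher and 1 lower in the large subunit, and 3 higher and 0 lower in the small one. The median level over all members ranged between 4.99 and 5.47 (median 5.25) in the PHx libraries and between 4.89 and 5.44 (median 5.20) in the sham libraries.

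The difference between PHx and sham was also compared between times. Over 4 to 32 h it varied for 31 of 79 members (39.2%) by limma's F-test, against 43.5% of all genes, and for 36 after TMM scaling, against 31.9%. Without replicate 1 of every group the count was 5, and without replicate 3 it was 9. Over 8 to 20 h, whose libraries carried identifiers of one series, it varied for 5 members (6.33%), against 7.35% of genes, and for 2 after TMM scaling, against 3.68%. The 2 were Mrpl38 (limma adjusted p = 0.033) and Mrps33 (0.045), and Mrps33 was not among the 5. Without replicate 1 or 3 of every group 0 members were called, and without replicate 2, 8. All 5 members called in the deposited values had their lowest change at 8 h. For Mrpl38 the changes at 8, 12, 16 and 20 h were -1.05, -0.36, -0.29 and -0.09 (limma adjusted p = 0.0004). For Mrpl12 they were -0.53, 0.34, -0.06 and 0.26 (0.0067), and for Mrpl49 -1.32, -0.09, -0.22 and -0.49 (0.016). Mrps36 had -0.99, 0.09, -0.14 and 0.04 (0.023) and Mrpl34 -1.23, -0.06, -0.40 and -0.54 (0.041).

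Since sampling ran around the clock, a cosine of 24 h was fitted within each operation. The first and last times of the cycle carried library identifiers of other series, so phase and library series cannot be told apart. In sham livers 19 of 79 members (24.1%) varied with that period (limma F-test, adjusted p under 0.05), against 28% of all genes, and 26 after TMM scaling, against 23.4%. Of the 19, 14 peaked between 12 and 18 h after the morning operation and amplitudes ran between 0.17 and 0.68. Mrpl58 had an amplitude of 0.49 and a peak at 14.4 h (limma adjusted p = 0.00032). Mrps18c had 0.30 and 15.5 h (0.00075), Mrps21, which is among the highest members, 0.31 and 14.4 h (0.0021), and Mrps34 0.30 and 13.3 h (0.0025). Mrpl15, of the large subunit, peaked away from these at 0.70 h with an amplitude of 0.68 (0.0036).

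In PHx livers 5 members (6.33%) were called rhythmic, against 8.28% of all genes, and 6 after TMM scaling, against 9.42%. Mrpl58 (amplitude 0.37, peak at 15.6 h) and Mrps18c (0.30, 15.2 h) were called in both operations, and the others in PHx livers were Mrpl2 (0.59, 13.7 h), Mrpl1 (0.38, 19.7 h) and Mrpl3 (0.24, 3.18 h), with limma adjusted p of 0.011, 0.020, 0.011, 0.027 and 0.043 in this order of names. In a fit of the PHx livers without the 4 h libraries, Mrps18c and Mrpl3 were not called (limma adjusted p = 0.065 and 0.055), while Mrpl58, Mrpl2 and Mrpl1 were. After TMM scaling Mrpl1 and Mrpl3 were not called (0.13 and 0.12), while Mrpl58, Mrps18c and Mrpl2 were. In sham livers Mrpl58 and Mrps18c were called in both of these fits. The difference in rhythm between operations was not tested. Without replicate 1 or 2 of every group 5 members were called in sham livers, and without replicate 3, 6, while 0 were called in PHx livers without any of the 3. In the authors' deposited table, 11 of the 80 members were marked rhythmic in sham livers and 4 in PHx livers, against 13.8% and 7.95% of 14620 genes.

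The time of the operation was compared at 24 and at 4 h. At the same interval, morning and night livers were also taken at different clock times. Operation time and clock time of sampling thus cannot be told apart in these comparisons. At 24 h, 77 members had counts in the PHx and in the sham table. Between morning and night PHx livers 0 members were called by edgeR's quasi-likelihood test or by DESeq2, and 1 had an unadjusted p under 0.05 by edgeR, against 0.253% of genes higher and 0.079% lower in the morning by edgeR and 1.29% and 0.703% by DESeq2. The median change of members, morning over night, was -0.06, with a range between -0.36 and 0.29. Between morning and night sham livers 0 members were higher and 1 lower in the morning, by edgeR and by DESeq2, against 2.75% and 2.61% of genes by edgeR and 4.22% and 4.2% by DESeq2. This was Mrps9, with 51.5, 53.6 and 51.6 CPM (counts scaled to library size, with TMM factors) in morning sham livers, against 77.6, 75.2 and 83.6 CPM in night sham livers, well apart (-0.58 ± 0.13, edgeR adjusted p = 0.027, DESeq2 adjusted p = 0.0040). The call was lost in 5 of the 6 fits that left out 1 library, and held without night sham replicate 3, where 3 other members were called higher in the morning.

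At 4 h the tables were separate for each operation, and morning and night could be compared only within an operation. 0 of the members in the sham table were called by limma, with 5 at an unadjusted p under 0.05 and 0 called after TMM scaling, and 0% of all genes were called. The median change, morning minus night, was -0.10. Mrpl33 varied between 6.70 and 109 TPM over the 6 sham libraries, with 40.1, 45.6 and 6.70 TPM in morning and 109, 82.1 and 66.4 TPM in night sham livers, and its change of -1.80 had an adjusted p of 0.84 by limma. In PHx livers 0 members were called by limma on TMM-scaled values, with 1 at an unadjusted p under 0.05 and 0 called by edgeR on recovered reads, against 0.397% of genes higher and 0.541% lower in the morning by limma and 0.316% and 0.435% by edgeR, and the median change was 0.03.

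In the counts, PHx against sham at 24 h gave more calls after the night operation, though the difference between the arms was called for no member. After the night operation 5 members (6.49%) were higher and 2 (2.60%) lower in PHx livers by edgeR's quasi-likelihood test, against 11.9% and 11.3% of genes, and 4 and 3 by DESeq2, against 12.9% and 13.5%. The number higher was 3 without night PHx replicate 1 or 3, 2 without night sham replicate 1, 0 without night sham replicate 2 and 8 without night sham replicate 3, and the number lower was 1 without night PHx replicate 1 and 4 without night sham replicate 2. After the morning operation the counts gave 1 higher and 0 lower, against 6.69% and 5.11% of genes, with 1 and 0 by DESeq2, against 7.8% and 7.03%, and 9 of either direction at an unadjusted p under 0.05 by edgeR. These counts come from the same morning livers as the 24 h time course, where 7 members were called higher in the deposited values. Of those, the counts called Mrpl17 alone. Mrpl16 had 0.25, Mrpl54 0.45, Mrps18b 0.31 and Mrps18c 0.18 (edgeR adjusted p = 0.23, 0.15, 0.56 and 0.61). The difference between operation times was called for 0 members by edgeR and by DESeq2, with 2 at an unadjusted p under 0.05 by edgeR, against 0.207% of genes called for a higher and 0.282% for a lower log2 change in the morning arm by edgeR and 0.937% and 1.08% by DESeq2.

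Mrpl17 was higher in PHx livers after both operations. After the night operation it had 115.9, 127 and 130.2 CPM in PHx livers, against 80.5, 73.7 and 93.4 CPM in sham livers (0.59 ± 0.15, edgeR adjusted p = 0.012). After the morning operation it had 143, 108 and 99.1 CPM in PHx, against 67.1, 68.3 and 79.7 CPM in sham livers (0.70 ± 0.15, edgeR adjusted p = 0.0079). The groups did not overlap in either arm, and the difference between the arms was 0.11 ± 0.22 (edgeR adjusted p = 0.93). Mrpl52 rose by 0.56 after the night operation (edgeR adjusted p = 0.029) and had a change of 0.48 after the morning one (0.091), and Mrps22 rose by 0.52 (0.022) and had 0.35 (0.16).

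Mrps25, of the small subunit, had 75.7, 79.0 and 79.0 CPM in night PHx livers, against 51.1, 43.0 and 63.4 CPM in night sham livers (0.57 ± 0.15, edgeR adjusted p = 0.013), and its exons overlap those of Nr2c2 on the opposite strand. Mrps9 had 40.9, 47.0 and 47.0 CPM in night PHx livers, against 77.6, 75.2 and 83.6 CPM in night sham livers (-0.81 ± 0.12, edgeR adjusted p = 0.00027). The 4 groups show where that fall lay, since Mrps9 averaged 42.0 CPM in morning PHx, 44.9 in night PHx, 52.2 in morning sham and 78.8 CPM in night sham livers, the night sham livers standing highest. The difference of its PHx response, morning less night, was 0.50 ± 0.17 (edgeR, unadjusted p = 0.010, adjusted p = 0.27). Mrps35, a small subunit protein without a bacterial counterpart, had 34.8, 38.5 and 43.8 CPM in night PHx and 53.6, 54.5 and 66.3 CPM in night sham livers (-0.58 ± 0.14, edgeR adjusted p = 0.0095).

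**Figure D5:**
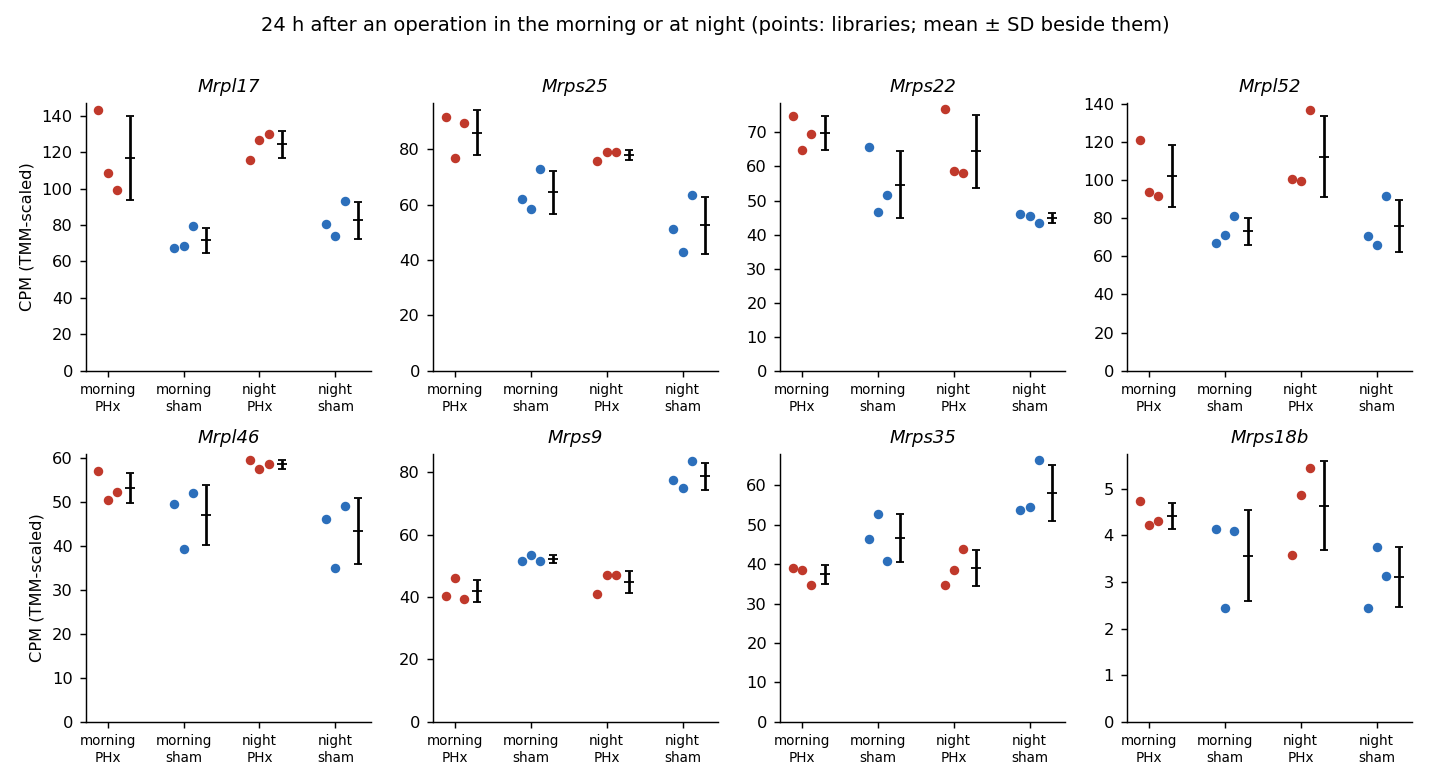
CPM (TMM-scaled, vertical axes from 0) of 8 members at 24 h in morning PHx, morning sham, night PHx and night sham livers. Points are libraries and bars beside them the mean ± SD (n = 3); Mrpl17 is higher in PHx livers in both arms, and Mrps9 is highest in night sham livers, at 75.2 to 83.6 CPM.

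Other genes of mitochondrial translation and of ribosomes were followed in lists of their own, with values as deposited and the same test. Of 5 mitoribosomal proteins under other symbols, 2 were called higher at 4 h, Chchd1 (1.18, limma adjusted p = 1.6e-07) and Aurkaip1 (0.32, 0.022), and 1 was lower at 8 h, Dap3 (-0.58, 0.0046). Of 11 translation factors 0 were higher and 5 lower at 4 h, among them the initiation factors Mtif2 (-1.47) and Mtif3 (-1.39), and 1 was higher at 12 h, the elongation factor Tsfm (0.58, limma adjusted p = 0.0076). Of 23 tested genes of mitoribosome assembly and rRNA modification, 2 were higher and 11 lower at 4 h, and 2 and 3 at 8 h. Ddx28, an RNA helicase of large subunit assembly, was higher at each time from 4 to 20 h, with changes of 1.51, 1.81 (limma adjusted p = 2.7e-07), 0.98, 1.21 and 0.94. Rbfa, a factor of small subunit assembly, was lower at each time from 8 to 20 h, with changes of -0.44, -0.33, -0.52 and -0.36, and again at 32 h (-0.45). After TMM scaling Ddx28 was also called higher at 4, 8, 12, 16 and 20 h, and Rbfa lower at 12, 16, 20, 24 and 32 h. Of 19 mitochondrial aminoacyl-tRNA synthetases and related enzymes, 0 were higher and 6 lower at 4 h and 0 and 3 at 8 h.

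Cytosolic ribosomal protein genes encode the ribosome outside the organelle. Of 84, 43, 4, 32, 37, 30, 3, 54 and 11 were called higher at 4, 8, 12, 16, 20, 24, 28 and 32 h, and 3 were lower at 4 h and 0 at each later time. After TMM scaling the numbers higher were 76, 30, 33, 24, 10, 1, 18 and 0, and none was lower. Nuclear genes of the respiratory chain encode partners of the proteins that the mitochondrial ribosome makes. Of 84 tested, 51 were called higher and 7 lower at 4 h. In order of time from 8 to 32 h, 0, 7, 0, 1, 1, 2 and 0 were called higher and 20, 0, 25, 13, 2, 7 and 11 lower. After TMM scaling, 71 were higher and 2 lower at 4 h, and from 8 h on 0, 8, 0, 0, 0, 1 and 0 were higher and 2, 0, 29, 39, 17, 20 and 37 lower. The background shares of these comparisons are those given for the members, 7.31% higher and 6.35% lower at 16 h for the deposited values. Of the 15 genes of mitochondrial DNA, 6 were higher and 1 lower at 4 h and 0 higher and 0 to 2 lower at each later time. The comparisons at 1 time share their libraries across these lists.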

How the data were processed

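RNA of 60 livers in 20 groups of 3 was sequenced. fastp 0.20.0, HISAT2 2.1.0 and the builds mm8 and mm9 are named per the submitters' processing notes; the sources used here do not give the counter, annotation and use of strand. The time course holds values the authors deposited as log2(value + 1), unit not stated, with a fraction that is their probability of rhythm. The 24 h tables hold read counts per gene deposited by the authors, and the sham 4 h table the authors' TPM. The PHx 4 h table, headed TPM per the file headers, holds the authors' signal, in which each gene's reads were multiplied by a fixed factor and no depth was divided out. Whole reads were recovered there for 11724 of 11840 genes (100% of their values whole within 0.01). 6 columns of samples without labels were not used.

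The time course was tested with limma 3.58.1 (R 4.3.3, eBayes with trend) on all 48 libraries and the values as deposited, keeping genes that reached 1 in 3 or more of them. The same fit on TMM-scaled values was an alternative. The 24 h counts (24611621 to 30192818 per library) were tested with edgeR 4.0.16 (quasi-likelihood, TMM, filterByExpr), with DESeq2 1.42.0 as an alternative, the sham 4 h TPM with limma on log2(TPM + 1), and the PHx 4 h signal (24889376 to 30626647 recovered reads) with limma after TMM scaling, with edgeR on the recovered reads as an alternative. Every p is two-sided and adjusted by Benjamini-Hochberg over all genes tested. Rhythm used a fixed period of 24 h. Fits were tested on simulated data. Other alternatives were a pseudocount of 0.1, no filter, the libraries of a comparison alone, a replicate block and leaving out each library. Named members are a fixed set, the 4 largest rises and falls called in each comparison, the 3 called at the most times and the 3 highest and lowest in level; those named beyond these, such as the full lists of calls, were chosen after their values were seen. Members and lists were chosen with earlier results of these data known.

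The depth of the time course is unknown, and the number of libraries limits its precision. The columns of 2 of the 3 morning sham libraries in the 4 h TPM table were not most alike to the time course library of the same number, so values of single libraries were not joined across those tables. Transcript lengths and exon overlaps come from GENCODE M21 and promoters from RefSeq (GRCm38.p6), and no coordinates of the files were used.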

Additional observations from a re-analysis of the deposited data

Results flagged for a closer look

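The PHx response of 5 members differed between 8, 12, 16 and 20 h by limma's F-test of the difference itself, with adjusted p of 0.0004 for Mrpl38, 0.0067 for Mrpl12, 0.016 for Mrpl49, 0.023 for Mrps36 and 0.041 for Mrpl34. Each had its lowest change at 8 h. After TMM scaling 2 members were called, Mrpl38 (limma adjusted p = 0.033) and Mrps33 (0.045). Mrps33 was not called in the deposited values (0.18). The others of the 5 were not called after TMM scaling, with 0.13 for Mrpl12, 0.064 for Mrpl49, 0.16 for Mrps36 and 0.16 for Mrpl34. Over 4 to 32 h the response of 31 members differed by the same test, a set of times that includes the comparison of libraries from different series at 4 h. In the deposited values 7.35% of all genes tested were called over 8 to 20 h and 43.5% over 4 to 32 h, more than the share of members. After TMM scaling the order turned over 4 to 32 h, with 36 of 79 members against 31.9% of genes.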

How the results depend on the processing

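Counts of members below are higher and then lower in PHx against sham livers. TMM scaling gave 47 and 1 at 4 h, 7 and 6 at 8 h, 5 lower at 16 h, 1 and 4 at 20 h, 1 and 2 at 24 h, 6 higher at 28 h, 0 and 2 at 32 h, and 2 members whose response differed among 8 to 20 h. The libraries of a comparison alone gave 12 and 3 at 4 h, 21 lower at 8 h, 1 and 0 at 16 h, 1 higher at 24 h and 4 higher at 28 h, and no filter gave 1 lower at 16 h. Other settings for 4 h, chosen after seeing the data, gave 1 higher with the sham livers of 24 h, 2 lower with these and TMM scaling, 47 and 4 with those of 28 h and TMM scaling, and 52 and 1 with TMM scaling without sham replicate 1. A pseudocount of 0.1 changed no call of the 52 named members' values, and DESeq2 none of 8. Leaving out 1 library gave 14 to 21 and 6 to 13 at 4 h, 2 and 10 to 16 at 8 h, 6 to 9 and 0 to 2 at 12 h, 1 to 3 and 0 to 3 at 16 h, 2 to 4 and 1 to 3 at 20 h, 1 to 6 and 0 to 1 at 24 h, 7 to 17 and 0 at 28 h and 0 to 5 and 0 at 32 h. Leaving out one replicate number in every group at once gave 5 to 25 and 0 to 8 members for a response that differed over 4 to 32 h and over 8 to 20 h, and 5 to 6 for rhythm in sham and 0 in PHx livers. Leaving out 1 library gave 0 to 3 and 0 to 1 for morning against night sham at 24 h, and 0 to 8 and 1 to 4 for the night operation at 24 h. Signs turned only at 4 h. With the sham livers of 28 h Mrpl11 had 0.36, and with TMM scaling too Mrpl11 had 0.75, Mrpl53 0.25, Mrps22 0.38 and Mrps30 0.032. With the sham livers of 24 h Mrpl12 had -0.25, Mrpl2 0.60 and Mrps16 -0.17, and with TMM scaling too Mrpl11 had 0.082, Mrpl2 1.00, Mrps22 0.0010 and Mrps30 0.29. With TMM scaling Mrps30 had 0.084, and without sham replicate 1 as well Mrpl11 had 0.33, Mrpl53 0.015, Mrps22 0.20 and Mrps30 0.11. The cause of these moves was not tested. The fit with the replicate block gave 5 higher at 32 h, 6 lower for the night operation at 24 h, and 2 and 1 for the morning counts at 24 h, and no other count moved by over 1.5 times. The numbers do not pair the samples, since the 42 correlations of same-numbered deviations ran between -0.227 and 0.255 and no comparison had every pair over 0.1.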
